A study of Mus musculus with 8 samples.

Results

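The genes described here are 10 matrix metalloproteinases, Mmp2, Mmp3, Mmp7, Mmp8, Mmp9, Mmp10, Mmp11, Mmp12, Mmp13 and Mmp14, out of 19938 genes measured in mouse colonic tumors. They were chosen by gene symbol, from probe sets (groups of array probes) annotated to exactly 1 gene. All 10 were found, each through a single probe set. The rule uses the symbol and not the level, but the set was chosen with earlier results of these data known.

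Matrix metalloproteinases are zinc-dependent endopeptidases that cut collagens, fibronectin, laminins and other parts of the extracellular matrix, as well as cell-surface and secreted proteins. They are made as inactive proenzymes, become active when a propeptide is cut off, and are held in check by the tissue inhibitors of metalloproteinases (TIMPs). In the intestine most of them are made by fibroblasts, macrophages and neutrophils, whereas Mmp7 is made by epithelial cells, among them tumor cells and Paneth cells.

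Transcript levels came from 8 Affymetrix arrays of colonic tumors in 3 groups. The K-rasG12Dint AOM group held 3 tumors of the distal colon induced with azoxymethane (AOM), a colon carcinogen. The LSL-K-rasG12D/+ AOM group held 2 AOM-induced tumors of the distal colon. The prefix LSL denotes a lox-stop-lox cassette, which blocks an allele unless a recombinase cuts it out. The serrated group held 3 tumors of the proximal colon with K-rasG12Dint and Ink4a/Arf-/-, the homozygous loss of Cdkn2a, which encodes cell-cycle inhibitors. All 3 groups carry a K-rasG12D label, but the sample titles call the LSL-K-rasG12D/+ AOM tumors wt, which the labels do not explain. The labels name AOM for neither serrated tumors nor their mice, and they name no recombinase driver and no ages. In every comparison of serrated with AOM tumors, the tumor type went together with AOM, the colon segment and the Ink4a/Arf genotype, and these cannot be told apart. Against LSL-K-rasG12D/+ AOM tumors the K-ras label differed as well, and so it did in part against both AOM groups together. The labels do not say whether each tumor came from its own animal, so p-values reflect only how these samples varied, which may be technical. Values are log2 signals, array medians over genes lay between 4.17 and 4.31, and the SD over genes was 1.77 on serrated replicate 1 and 2.00 to 2.13 elsewhere. All 12 epithelial markers, among them Epcam, Cdh1 and Vil1, stood above the median gene on every array. Cdkn2a itself ranged from 3.37 to 4.01 on serrated arrays, from 5.39 to 6.21 on K-rasG12Dint AOM arrays and from 3.59 to 4.28 on LSL-K-rasG12D/+ AOM arrays, so that serrated arrays overlapped with the latter.

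Of the 10 genes, 6 lie in a run of 10 metalloproteinase genes on chromosome 9, in the RefSeq order Mmp13, Mmp12, Mmp1b, Mmp3, Mmp1a, Mmp10, Mmp8, Mmp27, Mmp20, Mmp7, with no other protein-coding gene between them. The promoters below are shown because their genes give the main patterns of the data: Mmp13, Mmp3 and Mmp10, which were higher in 1 serrated tumor than in the other 2, Mmp7, which was low in all of them, and Mmp14, which lies outside the run. Mmp12 had the same pattern as Mmp13, Mmp3 and Mmp10 and is not printed. Each sequence is the 250 bases before the annotated transcript start, from RefSeq on build GRCm38.p6, 5′ to 3′ on the plus strand. Capitals mark exact matches to an AP-1 site (TGAGTCA or, on the other strand, TGACTCA) and to a TATA box (TATAAA), and in Mmp14 to a GC box (GGGCGG, in 2 adjoining copies). The Mmp13 promoter is chr9:7272264-7272513, that of Mmp3 chr9:7445572-7445821, that of Mmp10 chr9:7502092-7502341, that of Mmp7 chr9:7691840-7692089 and that of Mmp14 chr14:54431348-54431597.
Mmp13: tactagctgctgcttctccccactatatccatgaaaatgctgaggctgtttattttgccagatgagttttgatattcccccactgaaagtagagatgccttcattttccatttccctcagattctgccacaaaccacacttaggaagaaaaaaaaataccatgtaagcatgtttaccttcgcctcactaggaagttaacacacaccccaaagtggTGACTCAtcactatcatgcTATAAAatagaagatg
Mmp3: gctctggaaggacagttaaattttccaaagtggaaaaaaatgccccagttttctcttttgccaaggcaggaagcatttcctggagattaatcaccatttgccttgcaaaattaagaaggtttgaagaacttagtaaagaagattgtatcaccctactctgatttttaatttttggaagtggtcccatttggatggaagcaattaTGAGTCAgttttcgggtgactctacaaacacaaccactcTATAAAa
Mmp10: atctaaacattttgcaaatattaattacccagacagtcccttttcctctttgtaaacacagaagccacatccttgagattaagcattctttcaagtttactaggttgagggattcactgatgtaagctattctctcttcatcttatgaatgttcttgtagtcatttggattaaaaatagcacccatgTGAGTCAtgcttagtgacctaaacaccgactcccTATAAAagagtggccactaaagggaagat
Mmp7: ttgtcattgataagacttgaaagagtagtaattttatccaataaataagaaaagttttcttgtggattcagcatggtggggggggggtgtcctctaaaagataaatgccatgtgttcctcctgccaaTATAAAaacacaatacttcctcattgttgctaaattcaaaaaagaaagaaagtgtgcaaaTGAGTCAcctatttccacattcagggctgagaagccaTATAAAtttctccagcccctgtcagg
Mmp14: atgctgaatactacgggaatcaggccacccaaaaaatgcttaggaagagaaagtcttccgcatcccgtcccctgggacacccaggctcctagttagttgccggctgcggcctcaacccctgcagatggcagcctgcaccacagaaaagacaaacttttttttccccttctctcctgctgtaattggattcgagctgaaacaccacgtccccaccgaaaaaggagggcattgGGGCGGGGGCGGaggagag

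The AP-1 match began 35 bases before the start in Mmp13, 46 in Mmp3 and 63 in both Mmp10 and Mmp7, each time upstream of a TATA box match. Windows of 300 bases, 250 before to 50 after a start, were available for 8 of the 10 genes, and Mmp2 and Mmp9 were not searched. These 8 genes had 10 windows, since Mmp7 and Mmp12 have more than 1 start. Counts below are of genes with a match in any window, whereas the shares over all mouse windows are per window. An AP-1 match lay in a window of 5 of these 8 genes (Mmp13, Mmp3, Mmp10, Mmp7 and, at 1 of its starts, Mmp12), against 5.2% of all 32851 mouse windows searched on both strands. A TATA box match lay in windows of 6 genes (in Mmp12 only after the start that has the AP-1 match), against 13.6% of all windows. Mmp7 alone among them had a TCF/LEF match (CTTTGAT, or ATCAAAG on the other strand), 5 bases after its start and so outside the printed stretch, against 3.73% of all windows. GC boxes, in 35.7% of all windows, were matched only in Mmp14 and Mmp11. At its gene start, Mmp12 had no match to any of these motifs. A match is a description of the letters and shows no binding.

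All 10 metalloproteinases had a lower mean in serrated than in AOM tumors, and 4 of them passed the test: Mmp7, Mmp14, Mmp9 and Mmp2 fell. The test was limma, with 3 group means fitted to the 8 arrays, and a gene passed at an adjusted p under 0.05 (Benjamini-Hochberg over all genes). Of all genes, 5.76% passed as lower in this comparison of serrated tumors with the mean of both AOM group means. The median difference of the 10 genes was -1.83 on the log2 scale, beside 0.04 over all genes. Against K-rasG12Dint AOM tumors alone, Mmp7, Mmp14, Mmp9 and Mmp2 fell (4 of 10, against 3.99% of all genes), and against LSL-K-rasG12D/+ AOM tumors Mmp7, Mmp14 and Mmp9 fell (3 of 10, against 3.40%). The medians of the 10 genes were -1.55 and -1.87, and 0 of the 10 rose in any of these comparisons, in which 3.62%, 2.46% and 2.31% of all genes rose. These comparisons share the serrated arrays. In tumor pieces, fewer cells of a type and less RNA per cell cannot be told apart.

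**Figure D1:**
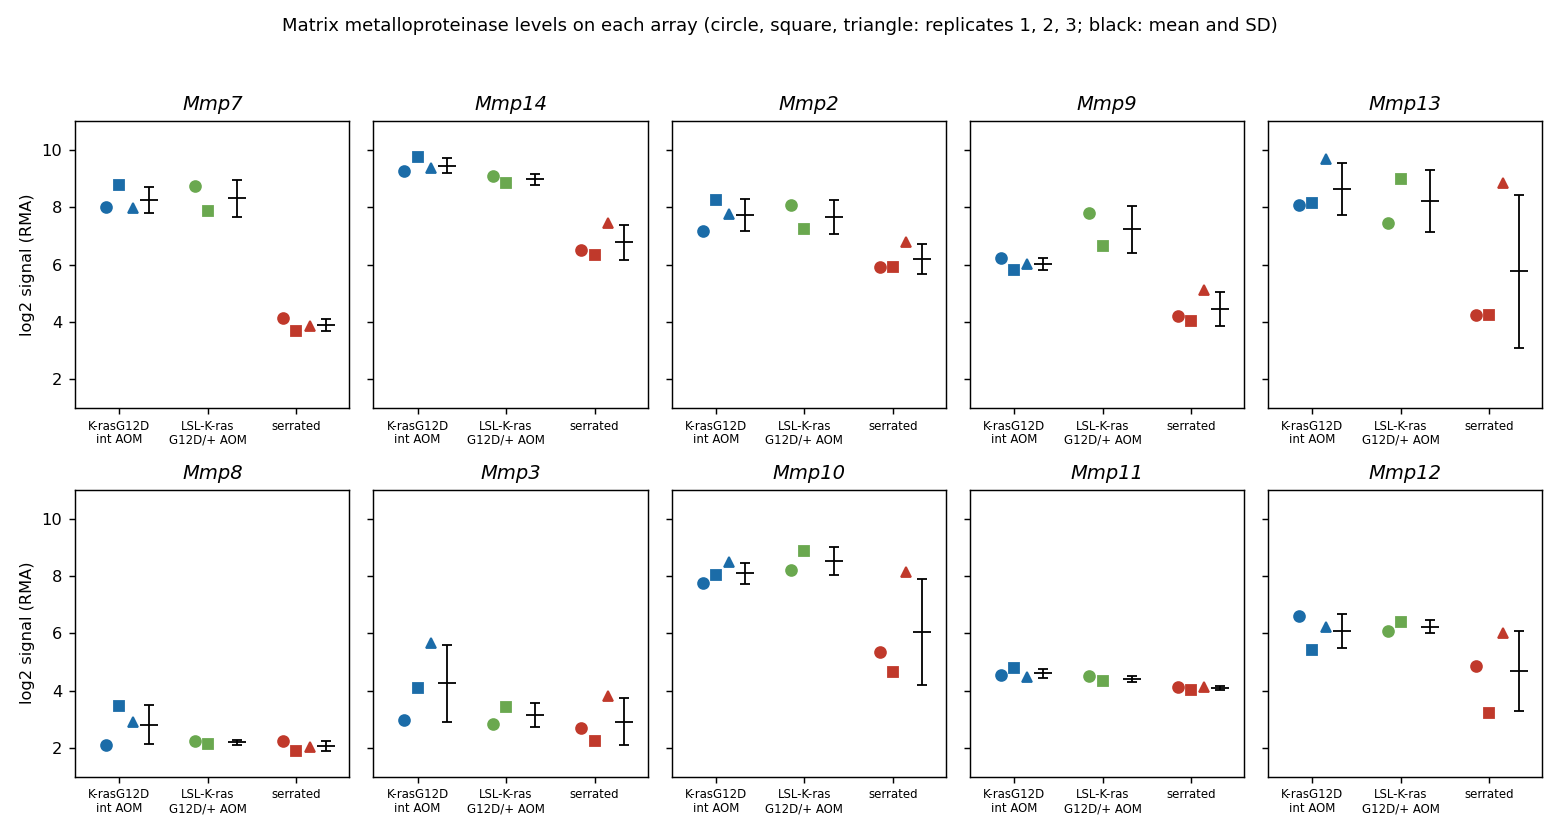
Log2 signal (RMA) of each metalloproteinase on each of the 8 arrays, by tumor group (blue, K-rasG12Dint AOM; green, LSL-K-rasG12D/+ AOM; red, serrated); circles, squares and triangles are replicates 1, 2 and 3, and black marks give the group mean and SD. The serrated arrays of Mmp7 lie between 3.70 and 4.13, far below all AOM arrays, whereas for Mmp13, Mmp10, Mmp12 and Mmp3 the triangle of serrated replicate 3 lies among the AOM arrays.

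Mmp7, matrilysin, is a small protease of epithelial cells, without the hemopexin domain that others carry, and a known target of Wnt signalling in intestinal tumors. Its log2 levels (probe set 10583133) were 8.01, 8.78 and 7.97 in K-rasG12Dint AOM tumors and 8.76 and 7.86 in LSL-K-rasG12D/+ AOM tumors. In serrated tumors they were 4.13, 3.70 and 3.86. The serrated arrays were all low and close together, and the nearest AOM array was far above them. Mmp7 was 20.9-fold lower in serrated than in AOM tumors (log2 difference -4.38 ± 0.27, SE, 95% interval -4.99 to -3.78, limma adjusted p = 0.000102). That difference ranked 8 from the lowest among all 19938 genes. Against K-rasG12Dint AOM tumors it was -4.36 ± 0.30 (adjusted p = 0.000314) and against LSL-K-rasG12D/+ AOM tumors -4.41 ± 0.33 (0.000413). The call held under each of the 15 alternatives run for each of these 3 comparisons, with differences from -4.86 to -3.96.

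Mmp14, a membrane-anchored metalloproteinase, cuts fibrillar collagen at the cell surface and activates the Mmp2 proenzyme. Log2 levels of its probe set, 10415052, were 9.26, 9.76 and 9.36 in K-rasG12Dint AOM tumors, 9.11 and 8.84 in LSL-K-rasG12D/+ AOM tumors, and 6.53, 6.34 and 7.46 in serrated tumors. Serrated replicate 3 was the highest of its group, yet below every AOM array. The gene was 5.43-fold lower in serrated than in AOM tumors (-2.44 ± 0.27, adjusted p = 0.00133 in limma). The difference was -2.68 ± 0.30 (0.00221) against K-rasG12Dint AOM tumors. It was -2.20 ± 0.33 (0.00875) against LSL-K-rasG12D/+ AOM tumors, a call lost without either LSL-K-rasG12D/+ array (adjusted p = 0.0902 and 0.0643, in a range of 0.000510 to 0.0902 over 15 alternatives).

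Mmp2, gelatinase A, is made mainly by fibroblasts and digests denatured collagen and basement membrane collagen. The levels from probe set 10573924 were 7.17, 8.26 and 7.77 in K-rasG12Dint AOM tumors, 8.09 and 7.25 in LSL-K-rasG12D/+ AOM tumors, and 5.90, 5.90 and 6.81 in serrated tumors. Again serrated replicate 3 was the highest of its group, and serrated arrays did not overlap with AOM arrays, whereas the 2 AOM groups overlapped with each other. Mmp2 was 2.82-fold lower in serrated than in AOM tumors (-1.50 ± 0.33, limma adjusted p = 0.0252) and -1.53 ± 0.36 (0.0424) against K-rasG12Dint AOM tumors. Against LSL-K-rasG12D/+ AOM tumors the difference of -1.46 ± 0.41 did not pass (0.0741). The call against both AOM groups was lost in 5 of 15 alternatives, with adjusted p up to 0.116, and that against K-rasG12Dint AOM tumors in 9 of 15, up to 0.164.

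Mmp9, gelatinase B, is stored by neutrophils and made by macrophages. Probe set 10478633 gave log2 levels of 6.24, 5.81 and 6.02 in K-rasG12Dint AOM tumors, 7.82 and 6.64 in LSL-K-rasG12D/+ AOM tumors, and 4.21, 4.04 and 5.13 in serrated tumors. Each group occupied a range of its own, with the serrated arrays lowest and the LSL-K-rasG12D/+ AOM arrays highest. Mmp9 was 4.49-fold lower in serrated than in AOM tumors (-2.17 ± 0.32, limma adjusted p = 0.00539), and this call held under all 15 alternatives (0.000221 to 0.0327). The difference was -1.56 ± 0.36 (0.0382) against K-rasG12Dint AOM tumors and -2.77 ± 0.40 (0.00757) against LSL-K-rasG12D/+ AOM tumors. The first of these was lost in 6 of 15 alternatives (adjusted p up to 0.145) and the second without LSL-K-rasG12D/+ replicate 1 (0.0698, the highest of 15).

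The collagenases cut intact fibrillar collagen, as Mmp14 also does, and Mmp13 is the main collagenase in mice. The log2 levels of probe set 10583044 were 8.08, 8.15 and 9.67 in K-rasG12Dint AOM tumors, 7.45 and 8.98 in LSL-K-rasG12D/+ AOM tumors, and 4.24, 4.23 and 8.85 in serrated tumors. Serrated replicates 1 and 2 were far below every AOM array, and replicate 3 was above 3 of the 5 AOM arrays. The serrated SD was thus 2.67, against 0.90 in K-rasG12Dint AOM tumors. The mean difference from AOM tumors of -2.65 ± 1.03 did not pass (limma adjusted p = 0.149, 95% interval -4.98 to -0.32). It passed in 2 of 15 alternatives (adjusted p from 0.00221 to 0.407), with array weights and, at -4.19 and 0.00221, without serrated replicate 3. Mmp8, the neutrophil collagenase, was dim throughout, with log2 levels (probe set 10583100) of 2.09, 3.45 and 2.89 in K-rasG12Dint AOM tumors, 2.26 and 2.13 in LSL-K-rasG12D/+ AOM tumors, and 2.26, 1.90 and 2.04 in serrated tumors. Its groups overlapped, the difference was -0.43 ± 0.28 (adjusted p = 0.369), and 2 K-rasG12Dint AOM arrays stood above the other 6.

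Stromelysins have a broad range of substrates and activate other proenzymes, among them those of collagenases. Mmp10 had log2 levels (probe set 10583090) of 7.75, 8.03 and 8.49 in K-rasG12Dint AOM tumors, 8.19 and 8.87 in LSL-K-rasG12D/+ AOM tumors, and 5.35, 4.66 and 8.15 in serrated tumors. As for Mmp13, serrated replicate 3 lay within the AOM range and the other 2 serrated arrays lay below it. The difference of -2.25 ± 0.68 did not pass (limma adjusted p = 0.0742). It passed in 3 of 15 alternatives (0.000797 to 0.257): without serrated replicate 3 (-3.30, 0.000797), with array weights, and without the dimmest 40% of genes (0.0442). Mmp3 was dimmer, with log2 levels (probe set 10583071) of 2.99, 4.11 and 5.67 in K-rasG12Dint AOM tumors, 2.84 and 3.44 in LSL-K-rasG12D/+ AOM tumors, and 2.68, 2.26 and 3.82 in serrated tumors. Its groups overlapped, with the highest value on K-rasG12Dint AOM replicate 3, and the difference from AOM tumors, -0.78 ± 0.57, did not pass (adjusted p = 0.434).

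Mmp11 is grouped with the stromelysins by name, is made by fibroblasts near tumor cells and is activated inside the cell by furin. On the log2 scale, probe set 10370037 gave 4.54, 4.78 and 4.48 in K-rasG12Dint AOM tumors, 4.49 and 4.34 in LSL-K-rasG12D/+ AOM tumors, and 4.12, 4.02 and 4.13 in serrated tumors. The 3 serrated arrays were lower than all 5 AOM arrays, by a narrow margin. The difference was small and did not pass (-0.42 ± 0.14, limma adjusted p = 0.101), except with array weights (0.0164, the lowest of 15 alternatives). Its spread within groups was also small, in percentile 6.44 of all genes.

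Mmp12, macrophage elastase, digests elastin. Signals of its probe set, 10583056, were 6.59, 5.41 and 6.22 in K-rasG12Dint AOM tumors, 6.06 and 6.38 in LSL-K-rasG12D/+ AOM tumors, and 4.85, 3.22 and 5.99 in serrated tumors. Serrated replicate 3 was above the lowest AOM array and the other 2 serrated arrays were below all of them. The difference of -1.46 ± 0.55 did not pass (limma adjusted p = 0.138), and it passed in 2 of 15 alternatives (0.00260 to 0.365), with array weights and without serrated replicate 3 (-2.12, 0.0150).

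The serrated tumors thus differed among themselves in these genes, and the 10 genes fell into 3 patterns. In 5 of them (Mmp7, Mmp14, Mmp2, Mmp9 and Mmp11) all 3 serrated arrays lay below all 5 AOM arrays, as they did in 8.93% of all genes. In 4 of them (Mmp13, Mmp10, Mmp12 and Mmp3) serrated replicates 1 and 2 lay below all AOM arrays and replicate 3 lay within the AOM range, as in 9.52% of all genes. Mmp8 had neither pattern. Array by array, serrated replicate 1 was below all AOM arrays for 9 of the 10 genes (33.3% of all genes), replicate 2 for 10 (25.8%) and replicate 3 for 6 (22.8%).

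Replicate 3 exceeded both other serrated arrays by more than 1 log2 unit for Mmp13, Mmp10, Mmp12 and Mmp3, which 2.59% of all genes did. For Mmp13 the excess over the mean of the other 2 serrated arrays was 4.62, the largest of all 19938 genes. That of Mmp10, 3.14, ranked 10, that of Mmp12, 1.96, ranked 83, and that of Mmp3, 1.35, ranked 396. Mmp14, Mmp9 and Mmp2 had smaller excesses, of 0.90 to 1.03. For Mmp7, Mmp8 and Mmp11 replicate 3 differed from the mean of the other 2 by at most 0.06. All 4 genes of large excess lie in the chromosome 9 run, as do Mmp7 and Mmp8, which had none. Without serrated replicate 3, 7 of the 10 genes passed as lower against both AOM groups together, against 13.5% of all genes in that fit, and 7 against each AOM group alone (11.9% of all genes for K-rasG12Dint, 9.02% for LSL-K-rasG12D/+). The 3 added against both AOM groups together were Mmp10, Mmp12 and Mmp13. Replicate 3 is singled out here because these genes were high on it. The larger counts without it follow from that choice and are no separate support.

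**Figure D2:**
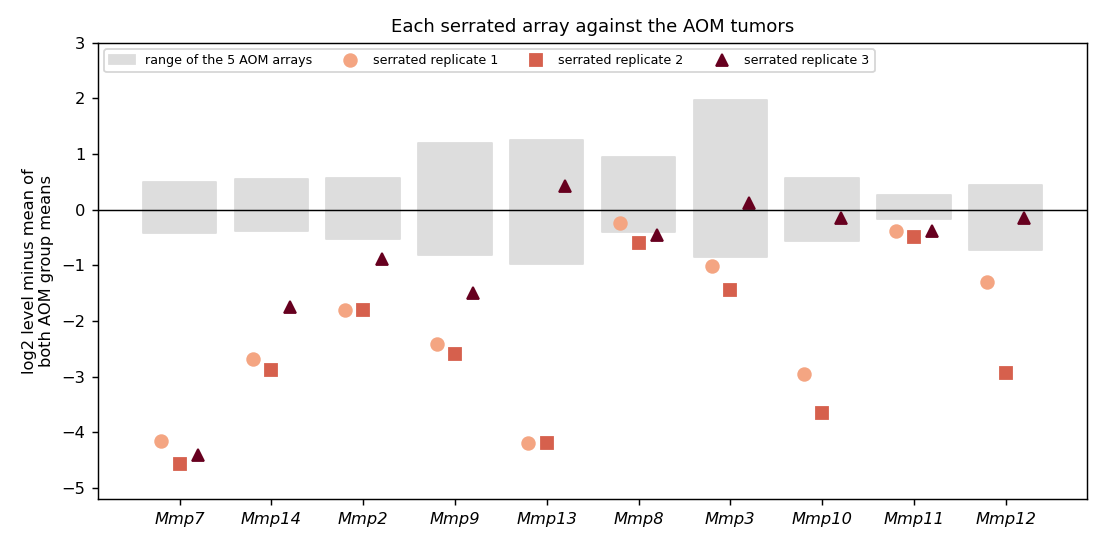
Log2 level of each metalloproteinase on the 3 serrated arrays, minus the mean of both AOM group means; grey boxes span the 5 AOM arrays. Serrated replicate 3 (dark triangles) lies within the grey box for Mmp13, Mmp3, Mmp10 and Mmp12, and below it with both other serrated arrays for Mmp7, Mmp14, Mmp2, Mmp9 and Mmp11.

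Between the 2 AOM groups, 0 of the 10 genes and 0 of all 19938 genes passed in limma (0% called). At an unadjusted p under 0.05 there were 1666 genes (8.36%), among them 1 of the 10, Mmp9. Its level was 1.21 ± 0.40 log2 units lower in K-rasG12Dint than in LSL-K-rasG12D/+ AOM tumors (difference -1.21, unadjusted p = 0.0154, adjusted p = 0.433) with no overlap, as in 15.7% of all genes in that direction. Mmp14 did not overlap either and was higher in K-rasG12Dint AOM tumors (0.48 ± 0.33, adjusted p = 0.832, 16.4% of all genes in that direction). With 3 and 2 arrays the intervals were wide: the 95% interval was -0.81 to 0.70 for Mmp7, -0.86 to 0.99 for Mmp2 and -2.47 to 3.31 for Mmp13. In order of group means, the serrated group was lowest for all 10 genes. K-rasG12Dint AOM tumors were highest for 6 and LSL-K-rasG12D/+ AOM tumors for Mmp7, Mmp9, Mmp10 and Mmp12, but the means of the 2 AOM groups did not differ past the test for any of the 10.

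**Figure D3:**
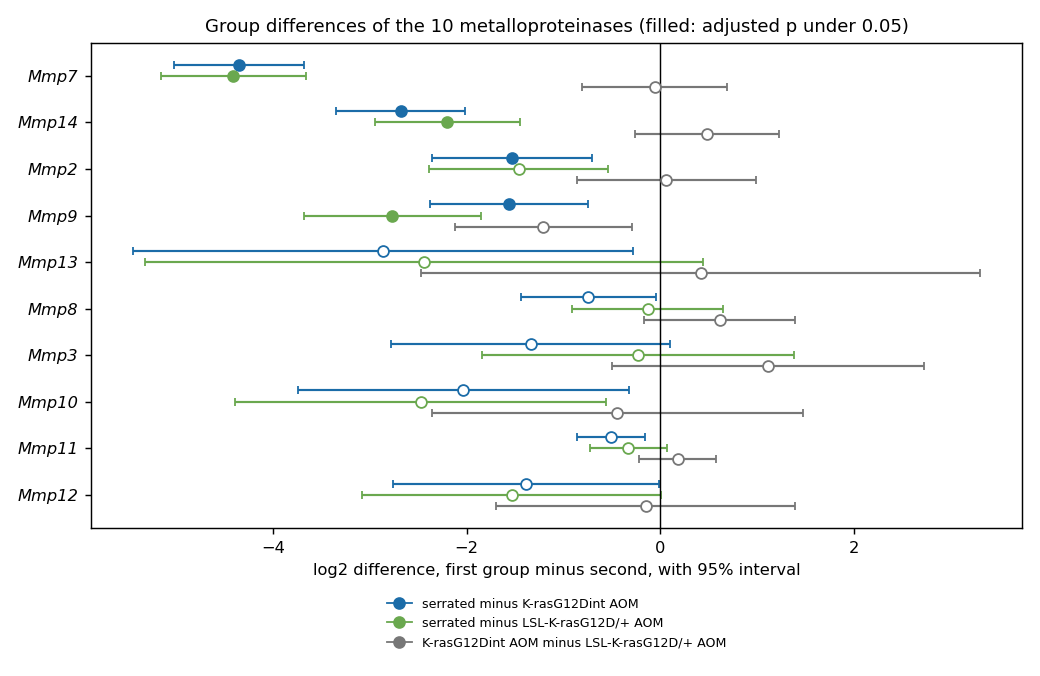
Log2 differences of the 10 metalloproteinases with 95% intervals from limma, for serrated minus K-rasG12Dint AOM (blue), serrated minus LSL-K-rasG12D/+ AOM (green) and K-rasG12Dint AOM minus LSL-K-rasG12D/+ AOM (grey); filled points have an adjusted p under 0.05. Mmp7 lies at -4.36 and -4.41 in the comparisons of serrated tumors, Mmp13 has the widest intervals, and all grey points are open.

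For each of the 4 genes that passed, the 3 genes with the most similar pattern were found, by the root mean square difference of log2 levels over the 8 arrays after centring each gene on its mean. Mmp2 was followed most closely by fibrillar collagens, Col5a2 (0.150), Col1a1 (0.184) and Col1a2 (0.189). Col5a2 stood at 6.09, 6.93 and 6.47 in K-rasG12Dint AOM tumors, 6.87 and 5.93 in LSL-K-rasG12D/+ AOM tumors, and 4.92, 4.99 and 5.58 in serrated tumors. Like Mmp2, it was higher on serrated replicate 3 than on the other 2. Mmp14 was nearest to Tmem64 (0.232), Thbs1 (0.267), the matrix glycoprotein thrombospondin, and Focad (0.312).

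Mmp7 was nearest to Adcy8, an adenylate cyclase (0.381), Tnfrsf11b, the decoy receptor osteoprotegerin (0.408), and Krt36, a keratin (0.453). Tnfrsf11b stood at 8.25, 8.88 and 8.12, then 8.01 and 8.09, in the AOM groups and at 4.06, 4.29 and 4.53 in serrated tumors. Mmp9 was nearest to Cyba, a subunit of the phagocyte NADPH oxidase (0.375), Cd81 (0.376) and Msrb3 (0.378), which like Mmp9 had their highest array in LSL-K-rasG12D/+ AOM replicate 1. All of these genes were lower on every serrated than on every AOM array, so the measure includes that group difference.

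**Figure D4:**
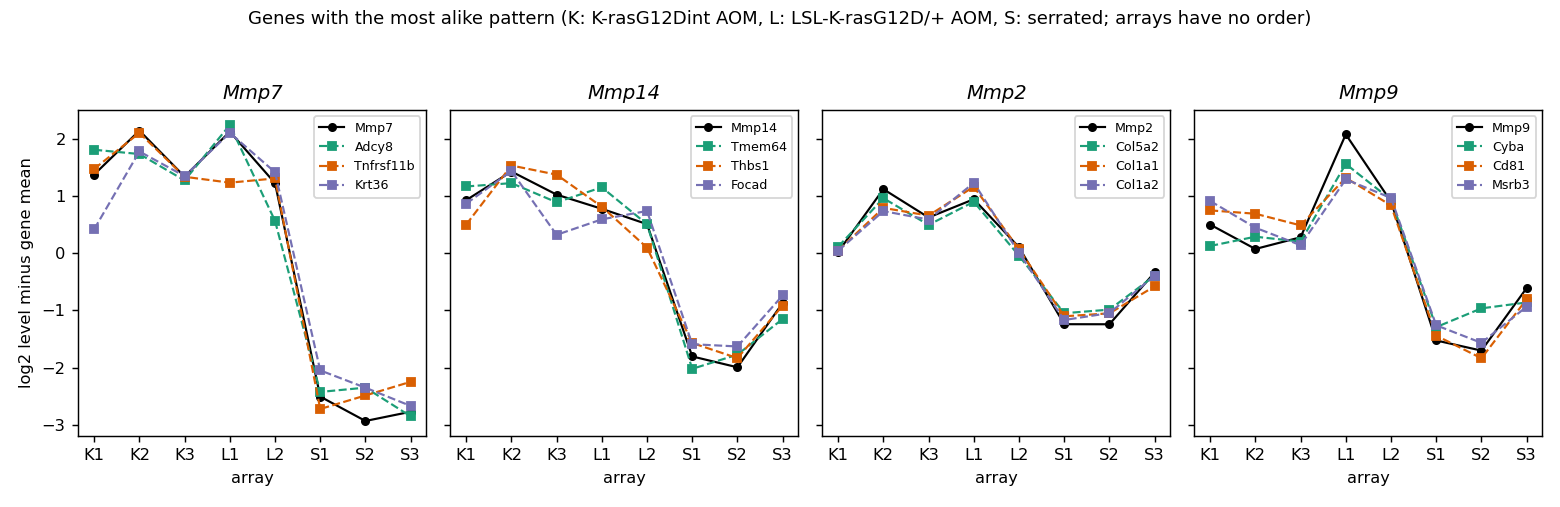
Log2 level minus the gene's mean over the 8 arrays for Mmp7, Mmp14, Mmp2 and Mmp9 (black) and the 3 genes nearest to each (colors); K, L and S are K-rasG12Dint AOM, LSL-K-rasG12D/+ AOM and serrated arrays, and lines only join points of a gene. Col5a2, Col1a1 and Col1a2 follow Mmp2 most closely, with root mean square differences of 0.150 to 0.189.

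Of 12 other metalloproteinases that were measured, 0 passed in any of the 4 comparisons in limma, 3 had an unadjusted p under 0.05 in serrated against AOM tumors (24.7% of all genes did), and their median in serrated against AOM tumors was 0.05. Their log2 levels ran from 1.27 to 5.98, and 8 of the 12 were below the median gene on every array. Mmp19 came nearest to passing: it ranged from 2.92 to 5.37 and differed by -1.16 (adjusted p = 0.0822), and without serrated replicate 3 it was the 1 of the 12 that fell, beside 13.5% of all genes.

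Among 6 inhibitors, Timp1, Timp3 and Timp2 fell in serrated tumors and 0 rose, beside 5.76% and 3.62% of all genes. Timp1 stood at 5.79, 5.82 and 6.03 in K-rasG12Dint AOM tumors, 5.46 and 4.97 in LSL-K-rasG12D/+ AOM tumors, and 3.72, 4.11 and 4.40 in serrated tumors, a difference of -1.47 ± 0.20 (limma adjusted p = 0.00355). The groups of serrated and AOM arrays did not overlap for Timp1, for Timp3 (-1.61 ± 0.32, 0.0186) or for Timp2 (-1.19 ± 0.32, 0.0499). Timp1 and Timp3 also fell against each AOM group alone, and Timp2 fell against K-rasG12Dint AOM tumors (0.0339) and not against LSL-K-rasG12D/+ AOM tumors (0.297). Without serrated replicate 3 the count was again 3 of 6, beside 13.5% of all genes.

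Of 10 measured proteases and receptors that activate proenzymes, 1 fell and 1 rose. Beside 5.76% and 3.62% of all genes, these counts do not set the list apart. Plat, tissue plasminogen activator, fell by 2.99 ± 0.40 (limma difference -2.99, adjusted p = 0.00329). Its levels were 8.02, 8.36 and 7.52, then 6.69 and 8.17, in the AOM groups, and 3.99, 4.85 and 5.29 in serrated tumors. Pcsk7, a proprotein convertase of the furin family, rose by 0.96 ± 0.15 (0.00687). Both passed in the same direction against each AOM group alone.

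Of 17 measured matrix substrates, 7 fell and 0 rose, beside 5.76% and 3.62% of all genes, with a median of -0.88. Fn1, fibronectin, fell by 1.92 (difference -1.92 ± 0.30, limma adjusted p = 0.00631), and the collagens Col1a1 (-1.47 ± 0.29, 0.0161), Col4a1 (-1.32 ± 0.26, 0.0178) and Col4a2 (-1.28 ± 0.26, 0.0183) fell as well. The counts were 4 against K-rasG12Dint AOM tumors (3.99% of all genes fell) and 5 against LSL-K-rasG12D/+ AOM tumors (3.40%). Against both without serrated replicate 3 the count was 10, beside 13.5% of all genes. Of 14 related ADAM and ADAMTS proteases, 1 fell against both AOM groups, a count that does not set the list apart from all genes (5.76%). It was Adam8 (-1.76 ± 0.34, 0.0156), a sheddase of myeloid and tumor cells, and the median of the list was -0.40. Adamts12 missed the threshold there (0.0516) and fell against K-rasG12Dint AOM tumors (-1.57, 0.0286).

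Regulators of metalloproteinase genes were also counted. Of 12 AP-1 and ETS transcription factors, families known to bind metalloproteinase promoters, Ets2 (-1.82 ± 0.19, limma adjusted p = 0.00122), Etv5 (-2.25 ± 0.30, 0.00346) and Jun (-0.93 ± 0.20, 0.0231) fell and 0 rose in serrated against AOM tumors. These were 3 of the 12, beside 5.76% of all genes. The median of the list was -0.31, and Etv4 passed only against K-rasG12Dint AOM tumors (-0.97, 0.0330). Of 9 cytokines and inducers, 1 fell, Tnf (-0.74 ± 0.17, 0.0304), with a median of -0.22. That count does not set the list apart from all genes (5.76%). Without serrated replicate 3, 4 of the 9 fell, beside 13.5% of all genes. Tnf (0.0194) and Tgfb1 (-1.24, 0.04996) fell against K-rasG12Dint AOM tumors, and neither passed against LSL-K-rasG12D/+ AOM tumors (-0.48, 0.241 and -0.56, 0.418). Of 13 measured Wnt target genes, 12 fell and 0 rose, beside 5.76% and 3.62% of all genes, with a median of -3.10. The 4 with the smallest adjusted p were Wif1 (-5.27), Prox1 (-4.73), Nkd1 (-4.23) and Sox4 (-3.33). The mean log2 level of the Wnt target list was 4.17 to 4.39 on serrated arrays and 6.91 to 7.68 on AOM arrays. Like Mmp7, this mean was thus lower on every serrated than on every AOM array. Of single genes 8.93% were, a share that is no background for a mean over a list. Within the list, Cd44 stood at 8.46 on serrated replicate 3, among its AOM values of 7.72 to 9.20. The part of the list in the Mmp7 difference was not tested. That list was low on all 3 serrated arrays, as Mmp7 was, whereas the mean level of the 10 metalloproteinases was 4.43, 4.03 and 5.63 on serrated replicates 1, 2 and 3 and 6.27 to 6.85 on AOM arrays.

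Some markers of the cells that make metalloproteinases fell in serrated tumors as well. Of 12 macrophage markers, 6 fell (5.76% of all genes did), among them Lyz2 (-2.67) and C1qa (-1.21), and 0 rose. Their median was -0.96. Against K-rasG12Dint AOM tumors 5 of the 12 fell (3.99% of all genes did) and against LSL-K-rasG12D/+ AOM tumors 2 (3.40%). The mean log2 level of the 12 was 4.41 to 5.01 on serrated arrays and 5.23 to 5.91 on AOM arrays, without overlap. Of 12 fibroblast markers, 3 fell (Col1a1, Col3a1 and Col1a2) and 0 rose, and 3 of the 12 differences were above 0. Col1a1, Col3a1 and Col1a2 are also among the matrix substrates, so the counts of both lists share them. Against K-rasG12Dint AOM tumors 1 of the 12 fell (3.99% of all genes did) and against LSL-K-rasG12D/+ AOM tumors 2 (3.40%). The mean level was 5.45 to 6.31 on serrated and 6.08 to 6.99 on AOM arrays, with overlap. Without serrated replicate 3, 7 of the 12 fell, where 13.5% of all genes did. In the macrophage and fibroblast lists serrated replicate 3 had the highest serrated mean, 5.01 and 6.31. In each, 10 of the 12 genes were higher there than on both other serrated arrays, against 38.0% of all genes. Endothelial markers (5.29 against 4.47 and 4.42, 6 of 8 genes) and the metalloproteinase-inducing cytokines (4.93 against 3.92 and 4.23, 7 of 9) were also highest on serrated replicate 3 within the group. Of the 10 metalloproteinases, 8 were higher there. The part of these lists in the levels of Mmp13, Mmp10, Mmp12, Mmp14, Mmp2 and Mmp9 was not tested.

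The mean level of 12 neutrophil markers was 3.83 to 4.07 on serrated arrays, 4.36 to 5.28 on K-rasG12Dint AOM arrays and 3.68 to 4.34 on LSL-K-rasG12D/+ AOM arrays, so serrated arrays lay below the former and overlapped with the latter. Of the 12, 1 fell against both AOM groups together, Lcn2 (-4.23, limma adjusted p = 0.00127), beside 5.76% of all genes. Against K-rasG12Dint AOM tumors 3 fell, Lcn2 (0.00334), S100a8 (0.0151) and Ly6g (0.0368), beside 3.99% of all genes. In these comparisons 0 rose, but 5 and 4 of the 12 differences were above 0. Against LSL-K-rasG12D/+ AOM tumors 1 fell, and 7 of the 12 differences were above 0. The part of neutrophil markers in the levels of Mmp8 and Mmp9 was not tested. On serrated replicate 3, 3 of the 12 were higher than on both other serrated arrays. Endothelial markers of serrated and AOM arrays overlapped (4.42 to 5.29 against 4.31 to 5.08), as did smooth muscle markers (5.04 to 6.18 against 4.79 to 5.67), with 0 of 8 passing in each list. Of 6 measured Paneth cell markers, 2 fell, Lyz1 and Pla2g2a (5.76% of all genes did). The mean level of the list was 4.48 to 5.28 on serrated and 5.48 to 7.81 on AOM arrays. Against K-rasG12Dint AOM tumors 1 of the 6 fell, Pla2g2a (3.99% of all genes did), and 2 of the 6 differences were above 0. These were Itln1 (0.91) and Ang4 (0.48), and neither passed, so the markers did not move as a class. The part of Paneth cell markers in the Mmp7 difference was not tested. Epithelial markers were at 9.68 to 9.73 on serrated and 9.02 to 9.26 on AOM arrays, with 2 of 12, Krt20 and Cdx2, higher (3.62% of all genes were) and 0 lower.

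**Figure D5:**
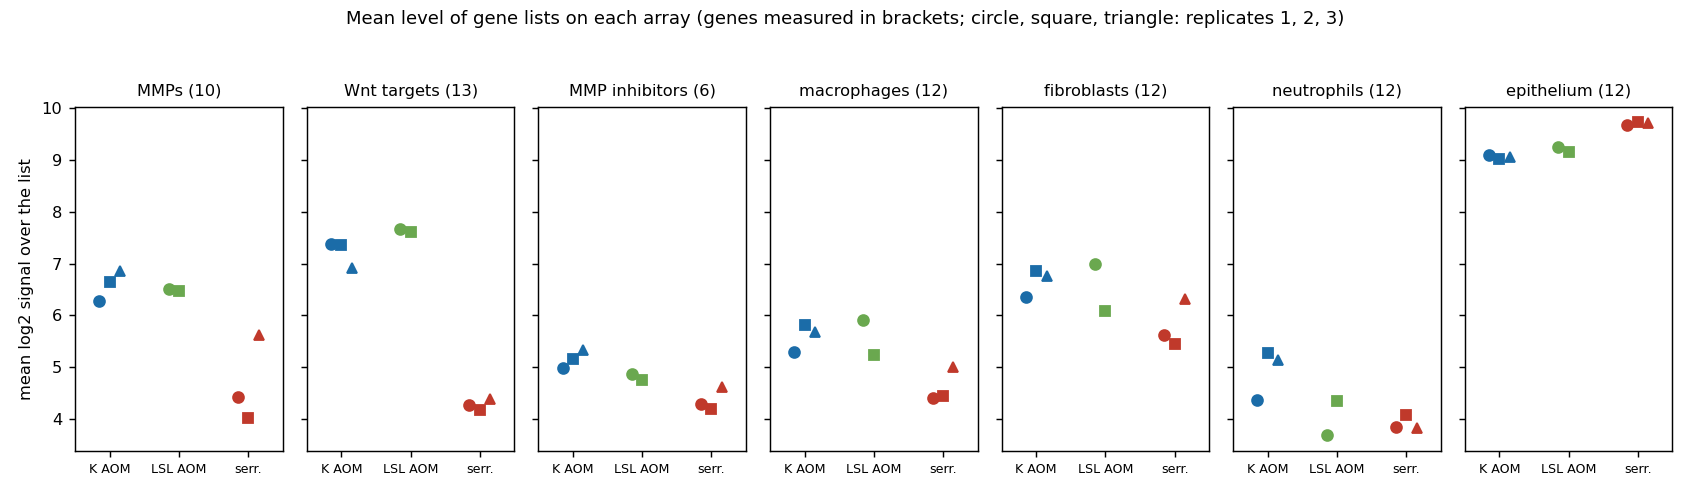
Mean log2 signal over each gene list on each array, by tumor group (K AOM, K-rasG12Dint AOM; LSL AOM, LSL-K-rasG12D/+ AOM; serr., serrated); circles, squares and triangles are replicates 1, 2 and 3, and the number of measured genes stands in brackets. Serrated replicate 3 has the highest serrated value for the 10 metalloproteinases (5.63), macrophages (5.01) and fibroblasts (6.31), while Wnt targets are at 4.17 to 4.39 on all 3 serrated arrays.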

How the data were processed

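Total RNA of 8 mouse colonic tumors was measured on 1 Affymetrix array each. The authors deposited log2 values made with GCOS and RMA, per the submitters' processing notes, while versions, chip annotation and settings are not given in the sources used here. RMA summarises the probes of a probe set on the log2 scale, which tends to understate folds of dim genes. The deposited table held 35557 probe sets, with values from 0.564 to 13.5. An annotation table named 1 gene symbol for 21789 of them, several for 1621 and none for 12147, and 21766 of the single symbols were RefSeq symbols. For the 999 genes with several probe sets, the one whose mean over the arrays was highest was taken.

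Genes were tested with limma 3.58.1 in R 4.3.3 (lmFit and eBayes, trend and robust off) in 1 fit of 3 group means to 8 arrays, with 5 residual degrees of freedom and 1 spread per gene shared by all groups. Where serrated arrays varied more than AOM arrays, as for Mmp13, Mmp10 and Mmp12, errors of serrated contrasts are too small. P-values were adjusted over all 19938 genes, an error beside a difference is a standard error, and replicates are numbered in accession order, which pairs nothing. The number of arrays limits the precision. The script was tested on simulated data.

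The 10 genes, the gene lists and the tests were chosen with earlier results of these data known. All 10 genes were named. From each pathway list, up to 4 genes with the smallest adjusted p in serrated against both AOM groups that passed in any comparison were named. Col5a2, Tnfrsf11b, Mmp19, and the cell type markers were singled out after their values were seen. Gene lists were recounted without serrated replicate 3 only, an array on which several metalloproteinases were high, so those recounts are descriptions. Alternatives left out each array or the dimmest 40% of genes, centred arrays on their medians, quantile normalized them, used trend and robust options, array weights, the mean of a gene's probe sets, only the arrays compared, or the 5 AOM arrays as 1 group. Promoter sequences came from RefSeq, build GRCm38.p6.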

Additional observations from a re-analysis of the deposited data

How the results depend on the processing

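Against both AOM groups together, 4 of the 10 metalloproteinases were lower, 3 to 7 when each array was left out in turn (7 without serrated replicate 3) and 8 with array weights, which gave serrated replicates 1, 2 and 3 weights of 0.242, 3.15 and 0.380. Against K-rasG12Dint AOM tumors 4 were lower, 2 to 7 with each array left out (2 without any 1 of the K-rasG12Dint AOM arrays or serrated replicate 1 or 2, 7 without serrated replicate 3), 2 with arrays centred on their medians and 8 with array weights. Against LSL-K-rasG12D/+ AOM tumors 3 were lower, 1 to 7 with each array left out (1 without LSL-K-rasG12D/+ replicate 1, where a lone array is assumed to vary like the others, 7 without serrated replicate 3) and 7 with array weights. Between the AOM groups the count was 0 under every alternative, and over all genes it reached 25 lower and 33 higher with array weights. No gene of the 10 passed as higher in any alternative, and no call changed sign. The difference of Mmp3 against LSL-K-rasG12D/+ AOM tumors, which did not pass, ran from -0.70 to 0.11 over the alternatives. Centring moved the median of all genes in serrated against K-rasG12Dint AOM tumors from 0.05 to 0.14. Over all genes, the 1149 lower and 722 higher in serrated against both AOM groups ranged from 368 to 2696 and 275 to 1215 with each array left out, and were 3262 and 2497 with array weights, 801 and 768 after centring, and 1293 and 1155 after quantile normalization. Against K-rasG12Dint AOM tumors, 796 lower and 490 higher became 511 and 563 after centring and 1008 and 941 after quantile normalization. Mmp8 and Mmp3 were among the dimmest 40% of genes, where low signal limits what can be seen. No paired analysis was possible because the labels give no shared replicate numbers.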
